A study of Mus musculus with 3 samples.

Results

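Peaks of the nucleoporin Seh1 were examined at the genes of 3 growth factor pathways: Wnt, fibroblast growth factor (FGF), and bone morphogenetic protein with transforming growth factor beta (BMP and TGFb). Genes were chosen by a rule on their names: numbered Wnt, Fzd, Dkk, Sfrp, Fgf, Fgfr, Bmp, Smad, Gdf, Tgfb and Tgfbr genes, with Axin1, Axin2, Lrp5, Lrp6, Lef1, Tcf7, Tcf7l1, Tcf7l2, Ctnnb1, Bmpr1a, Bmpr1b and Bmpr2. The choice was made with earlier results of these data known. This rule matched 115 genes, 113 of them protein-coding. Of the 115, 66 were given a peak in at least one list, among 9838 genes given a peak in the whole series. A gene has a peak below when the authors' annotation gave it one by the nearest start site; peaks that lay inside a gene but were given to another are named as such. Of the 115 genes, 6 were kept out of the role groups as matches by spelling: Bmp1, Bmp2k, Fgfr1op, Tgfbr3l and the non-coding Fgf2os and Fzd10os. The Fgf group still holds Fgf11, Fgf12, Fgf13 and Fgf14, whose products are not secreted ligands.

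The series holds 3 ChIP-seq libraries of primary neural stem cells from the cortex of wild-type mice at postnatal day 0, with 1 library each for a Seh1 immunoprecipitation, an IgG immunoprecipitation (background antibody) and input chromatin. All cultures shared a laminin and polyornithine substrate and a growth medium with EGF and bFGF, each at 20 ng/ml, so an FGF ligand was present in every group. Cells were fixed with formaldehyde at 1% for 10 minutes. The labels do not give the number of animals or cultures. A peak list was used for Seh1 (16113 peaks) and for IgG (5314 peaks), whose header commands both name the input. With 1 library per group no value has a replicate error and nothing below was tested between conditions. Sequencing depth is unknown and the peak score was 0 throughout, so a peak is described by its place and width. Peak lists hold no expression values, so the labelled cell type could not be checked against its markers.

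Wnt ligands bind Frizzled receptors with the co-receptors Lrp5 and Lrp6. This keeps beta-catenin (Ctnnb1) from the destruction complex that Axin organises, and beta-catenin then works with Lef1 and Tcf factors in the nucleus. FGFs signal through receptor tyrosine kinases, and bFGF (the product of Fgf2) is a standard mitogen for cultured neural stem cells. BMP and TGFb ligands bind paired receptor kinases that phosphorylate Smad proteins. In the developing cortex these pathways are known for patterning, for keeping progenitors dividing and for the choice between neurons and glia.

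The start sites are shown first, because a peak at a start site was the exception among these genes, as it was among all genes. RefSeq windows (GRCm38.p6) of 250 bases before a start were matched for 79 of the genes, 102 windows in all. The other genes had no window, among them Gdf3, whose Seh1 peak lay nearest to a TSS of all these genes (296 bp). A Seh1 peak covered part of 1 of the 102 windows (0.980%), against 165 of all 32851 windows (0.502%), and an IgG peak covered none. That window belongs to Tgfbr1, which encodes the type I TGFb receptor, and it precedes an internal start of the gene. The 4 sequences below begin with the Tgfbr1 window with the peak and the window before the first Tgfbr1 start. The windows of Sfrp5 and Wnt5b follow, which came next in closeness to a Seh1 peak among the 102 windows. Each is printed 5′ to 3′ on the strand of its gene. The Tgfbr1 window with the peak also holds CAGAC once, at bases 48 to 52, left in lower case. In that sequence the capitals are the 28 bases inside the Seh1 peak. In the others they are matches, on either strand, to CTTTGAT (TCF/LEF), CAGAC (SMAD) or GGCGCC (BMP GC box). The last name stands only for these letters, and other sequences known as a GC box were not marked or counted.
Tgfbr1 internal start, chr4:47385966-47386215 (+): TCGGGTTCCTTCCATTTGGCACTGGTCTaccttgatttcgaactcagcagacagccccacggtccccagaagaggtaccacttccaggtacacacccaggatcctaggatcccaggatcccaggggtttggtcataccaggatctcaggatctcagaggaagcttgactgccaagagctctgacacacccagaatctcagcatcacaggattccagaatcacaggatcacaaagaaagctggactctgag
Tgfbr1 first start, chr4:47352972-47353221 (+): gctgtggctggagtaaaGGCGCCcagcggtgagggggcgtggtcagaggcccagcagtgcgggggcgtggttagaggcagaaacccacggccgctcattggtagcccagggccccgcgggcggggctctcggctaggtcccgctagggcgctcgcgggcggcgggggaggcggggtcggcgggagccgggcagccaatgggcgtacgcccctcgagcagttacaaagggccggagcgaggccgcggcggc
Sfrp5, chr19:42202253-42202502 (-): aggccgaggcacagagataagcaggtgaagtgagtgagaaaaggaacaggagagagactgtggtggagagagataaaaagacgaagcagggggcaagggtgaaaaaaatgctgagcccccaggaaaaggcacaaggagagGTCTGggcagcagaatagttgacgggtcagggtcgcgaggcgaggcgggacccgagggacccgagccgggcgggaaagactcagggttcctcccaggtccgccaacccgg
Wnt5b, chr6:119449387-119449636 (-): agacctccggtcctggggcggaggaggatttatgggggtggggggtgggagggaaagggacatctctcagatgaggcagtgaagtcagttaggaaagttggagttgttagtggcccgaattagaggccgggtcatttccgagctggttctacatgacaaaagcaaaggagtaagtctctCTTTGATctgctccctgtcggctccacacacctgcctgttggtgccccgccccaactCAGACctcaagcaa

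The Tgfbr1 window with the peak was 52.8% G and C and held 3 CpG pairs, while the window of the first start was 74.8% G and C and held 29. From the window of the first start the nearest Seh1 peak was 32.5 kb away and the nearest IgG peak 10.6 kb away. The Sfrp5 and Wnt5b windows lay 1977 and 4573 bp from a Seh1 peak. Across the windows of these genes the median G and C content was 64%, against 52.4% over all windows. The TCF/LEF letters occurred in 3 of the 102 windows (2.94%) and in 3.21% of all windows. The SMAD letters occurred in 41.2% and 42.2%. The BMP GC box letters GGCGCC occurred in 27 of 102 windows (26.5%, 95% exact interval 18.2 to 36.1%) and in 9.59% of all windows. Some genes have several windows, which can overlap, as at Lef1, so a match can be counted repeatedly. The interval takes the windows as independent and can therefore be too narrow. None of these 3 motifs contains another, and a match is not a measured binding site.

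Most genes of these families were given a Seh1 peak, and fewer were given an IgG peak. At least 1 Seh1 peak was given to 62 of the 113 protein-coding genes, or 54.9% (95% exact binomial interval 45.2 to 64.2%), against 31.9% of all 21779 protein-coding genes. At least 1 IgG peak was given to 17, or 15.0% (9.01 to 23.0%), against 11.3%. At least 2 Seh1 peaks were given to 27 genes (23.9%), against 13.1% of all protein-coding genes. Both libraries gave peaks to 13 genes (11.5%), against 6.42%. Only Seh1 peaks were given to 49 genes, only IgG peaks to 4 (Wnt2, Wnt2b, Bmp5 and Bmpr1a), and neither to 49 of the 115. Of all 21779 protein-coding genes, 6938 were given a Seh1 peak, 2471 an IgG peak and 1399 peaks of both. The 2 non-coding genes were given no peak. All intervals cover counting error only, neighbouring peaks are not independent, and no test was made of these shares.

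Peaks were assigned to the gene of the nearest transcription start site (TSS), so a gene with distant neighbours can collect more of them. Territory here means the gene plus the gap on each side up to the midpoint to the next protein-coding gene. Median territory was 82.3 kb for these genes and 46.4 kb for all protein-coding genes. All protein-coding genes were split by territory into 4 classes of equal size. In the lowest class (up to 21.5 kb), 2 of 18 signalling genes had a Seh1 peak (11.1%), the same share as the 11.1% of all genes there. In the next classes the shares were 9 of 17 (52.9%, interval 27.8 to 77.0%) against 23.3%, 17 of 32 (53.1%, 34.7 to 70.9%) against 36.0%, and 34 of 46 (73.9%, 58.9 to 85.7%) against 57.0%. The Seh1 share thus lay above the background in 3 of the 4 classes, and in the class with 32 genes the interval contained it. For IgG the shares were 0 of 18, 1 of 17, 5 of 32 and 11 of 46 (23.9%), against 2.08%, 4.90%, 10.7% and 27.7%.

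**Figure D1:**
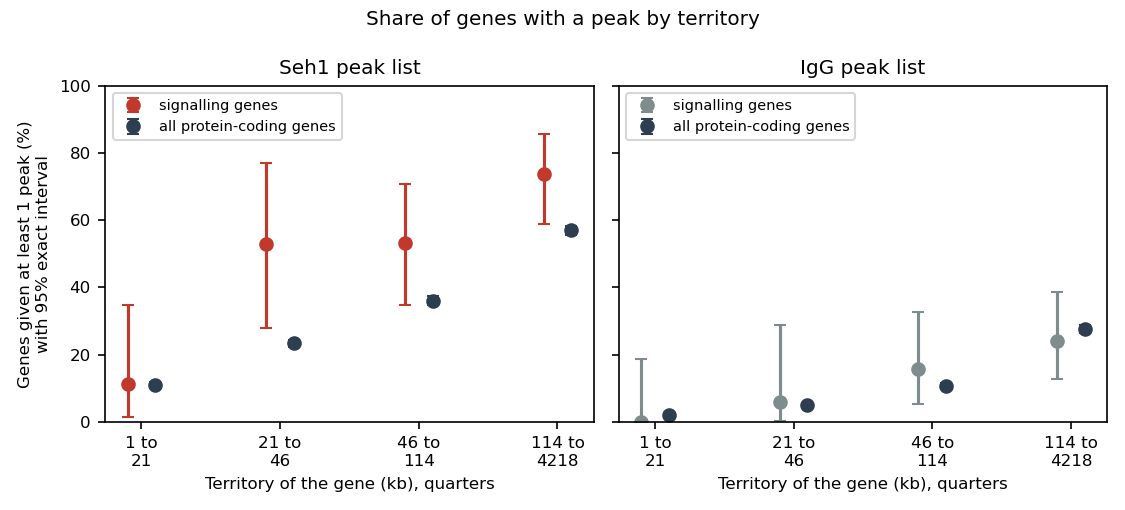
Share of genes given at least 1 peak (vertical axis, %) in 4 classes of territory in kb (horizontal axis), for the Seh1 list and the IgG list; points are shares and bars 95% exact binomial intervals. The Seh1 share of the signalling genes is 11.1% in the lowest class, as for all protein-coding genes, and 52.9 to 73.9% in the others, where the background runs from 23.3 to 57.0%.

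Per Mb of territory, the signalling genes were given 5.94 Seh1 peaks (exact Poisson interval 4.87 to 7.18, 107 peaks over 18.01 Mb). For all protein-coding genes the value was 4.71 (4.63 to 4.80, 12693 peaks over 2693 Mb). For IgG it was 1.33 (0.854 to 1.98, 24 peaks), and for all protein-coding genes the interval was 1.45 to 1.55 per Mb. These values count peaks given by the nearest start site, and some of those peaks lay outside the territory of their gene. Peaks given to non-coding genes were left out, although territory was bounded by protein-coding genes only. The values are therefore not densities of the peaks inside the territories. By this ratio the gap between the groups was narrower than per gene for Seh1, and for IgG the signalling genes were slightly lower.

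The share of genes with a Seh1 peak was 26 of 46 (56.5%) in the Wnt pathway, 14 of 26 (53.8%) in the FGF pathway and 20 of 37 (54.1%) in the BMP and TGFb pathway. By role it ran from 1 of 3 Tgfb ligands (33.3%) and 8 of 20 Bmp and Gdf ligands (40%) to 6 of 8 Smads (75%), 3 of 4 Fgf receptors (75%) and 5 of 6 BMP and TGFb receptors (83.3%). The median territory was 42.0 kb for the Bmp and Gdf ligands, 154 kb for the Smads and 211 kb for the BMP and TGFb receptors. In the class of largest territory 57.0% of all protein-coding genes had a Seh1 peak. That share lies inside the intervals of the BMP and TGFb receptors (35.9 to 99.6%) and of the Smads (34.9 to 96.8%). The intervals of all roles overlapped. IgG peaks were given to 4 of the 6 BMP and TGFb receptor genes and to 1 of the 8 Smads. Of all protein-coding genes 11.3% were given an IgG peak, and 27.7% in the class of largest territory.

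**Figure D2:**
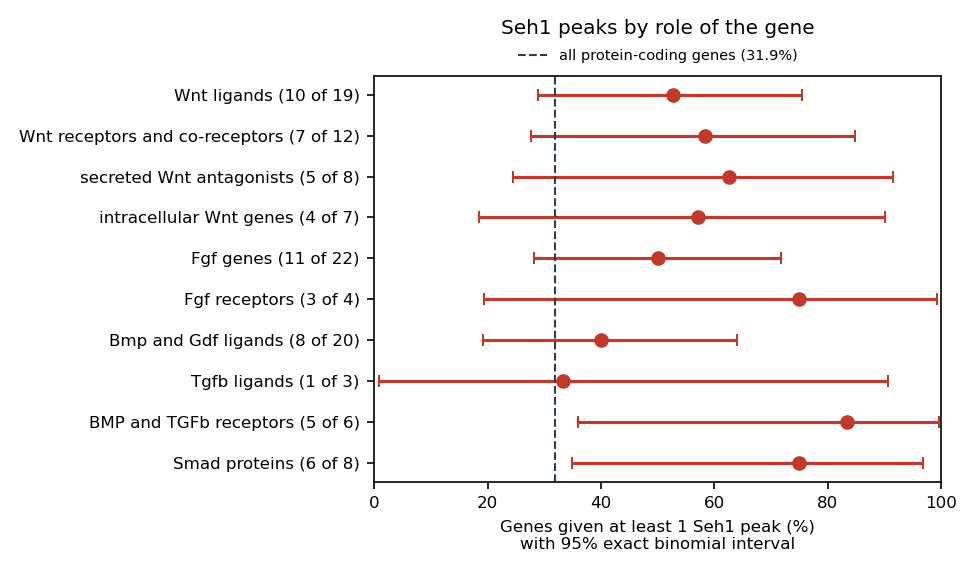
Share of genes given at least 1 Seh1 peak (horizontal axis, %) for 10 roles; points are shares, bars 95% exact binomial intervals, and the dashed line is the share of all protein-coding genes, 31.9%. Every point lies above the line, and only the bars of the BMP and TGFb receptors and of the Smads do not reach it. The line makes no allowance for territory, which is large in these roles, and IgG peaks are not shown.

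Most of these Seh1 peaks lay far from a start site. Of the 107, 2 lay within 1 kb, 4 within 5 kb (3.74%, interval 1.03 to 9.30%) and 18 within 10 kb (16.8%). For peaks of all protein-coding genes the shares were 1.91%, 7.66% and 18.8%. The 18 peaks belonged to 16 genes, 14.2% of the 113 (8.32 to 22.0%), against a background of 9.68%. IgG had 1 gene with a peak within 10 kb (0.885%), against 2.36%. Between 50 and 100 kb lay 29 of the 107 Seh1 peaks (27.1%, 19.0 to 36.6%), against 16.7% of peaks of all protein-coding genes. No other distance bin had an interval without the background share. Several of the 29 belong to the same gene, as at Fzd7, so the interval can be too narrow. From 100 to 200 kb the share was 8.41%, against 12.1%, and beyond 200 kb it was 8.41%, against 10.9%. The median distance was 38.3 kb, against 34.6 kb, and 49 peaks lay upstream and 58 downstream of the TSS.

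**Figure D3:**
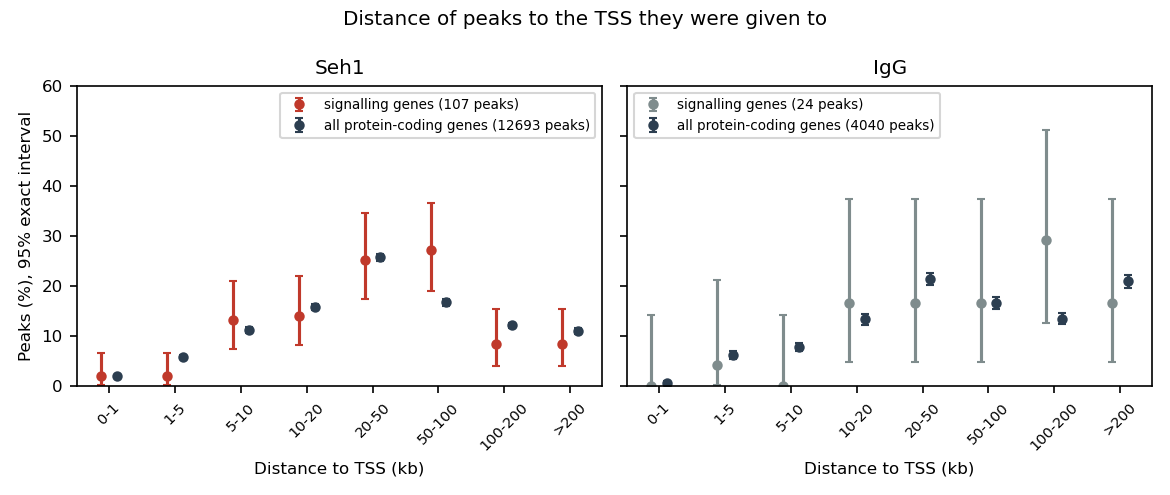
Share of peaks (vertical axis, %) by distance from the peak centre to the TSS in kb (horizontal axis), for signalling genes and for all protein-coding genes; bars are 95% exact binomial intervals. For Seh1 the bin from 50 to 100 kb holds 27.1% of the signalling gene peaks and 16.7% of all, and no other Seh1 bin has an interval without the share of all. The bin from 1 to 5 kb holds 2 signalling gene peaks (1.87%, interval 0.227 to 6.59%), and this interval contains the 5.74% of all.

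Inside the gene it was given to lay 30 of the 107 Seh1 peaks (28.0%, against 36.7% for all protein-coding genes). A Seh1 peak centre inside the gene, whatever gene the peak was given to, was found in 31 of the 113 genes (27.4%, 19.5 to 36.6%), against 19.5% of all. For IgG these were 10 genes (8.85%), against 6.26%. Inside 9 of these genes lay 15 Seh1 peaks that were given to another gene, and inside 3 of them lay 3 such IgG peaks. Counting a gene as marked when it was given a peak or held one, 65 genes were marked by Seh1 (57.5%, 47.9 to 66.8%), against 35.9% of all, and 20 by IgG (17.7%, 11.2 to 26.0%), against 12.9%. Of the 107, 14 (13.1%, against 11.6% for all protein-coding genes) lay in a part of another gene by the authors' annotation, so the signalling gene was the nearest start and not the host. The classes were 62 intergenic (57.9%, against 54.3% of all Seh1 peaks), 38 intron (35.5%, against 36.8%), 4 exon (3.74%, against 5.37%) and 1 each at a 3′ UTR, a transcription termination site (TTS) and a promoter.

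**Figure D4:**
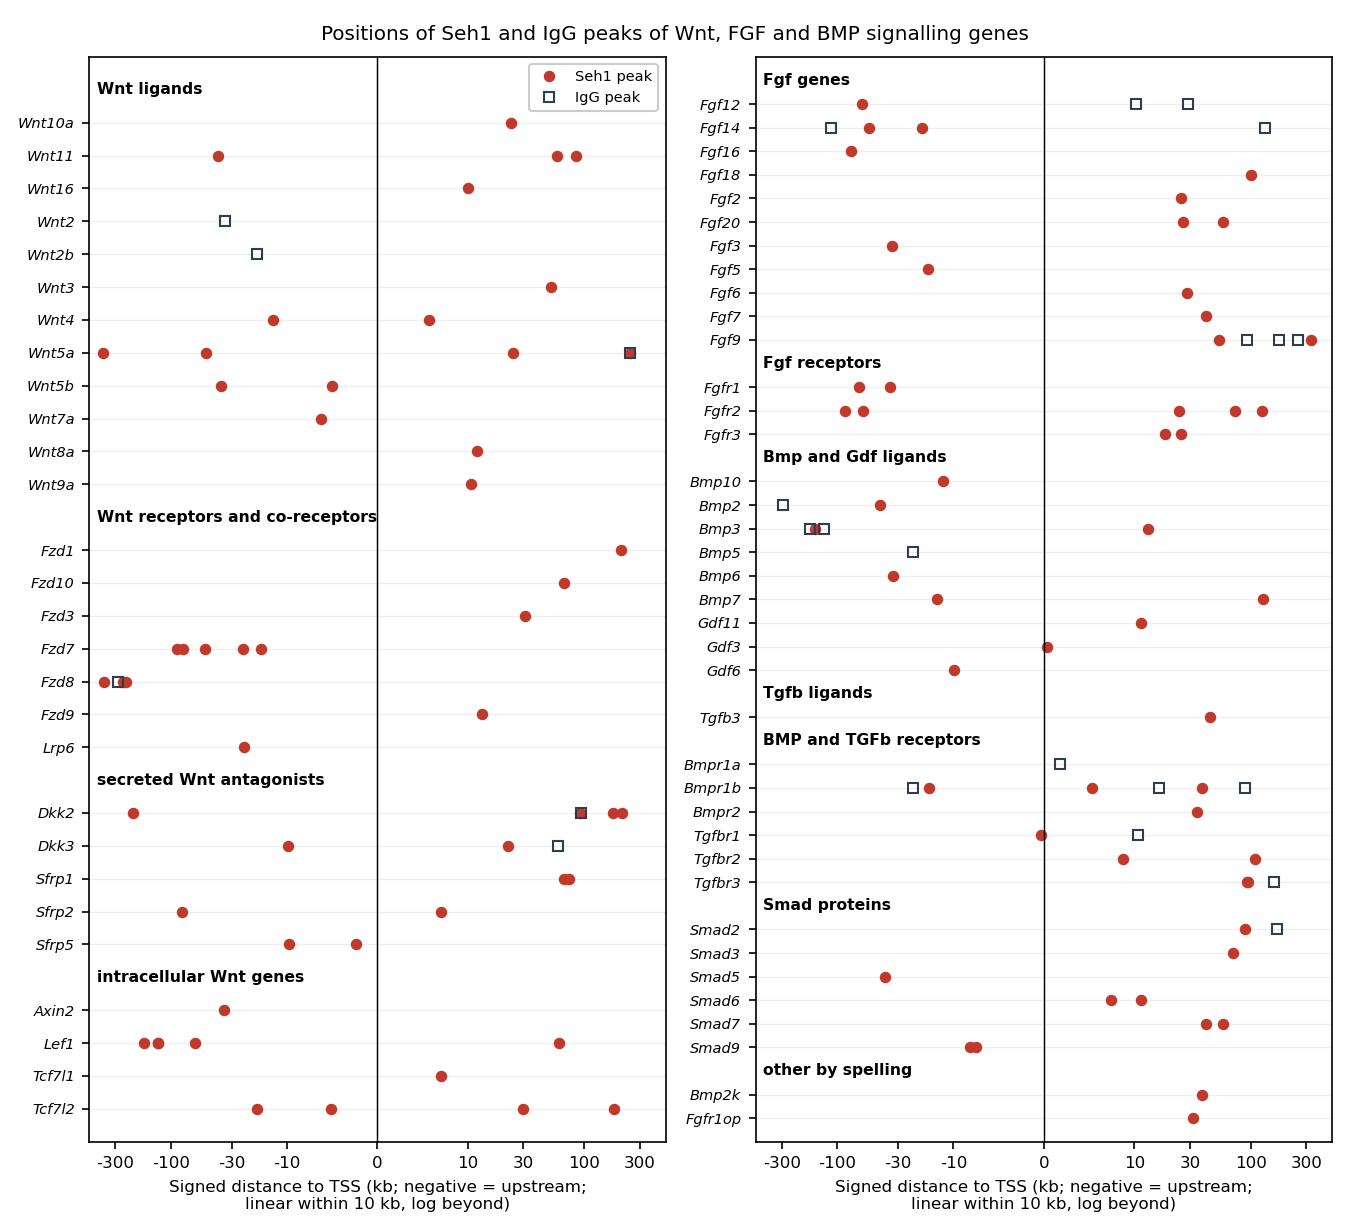
Signed distance from peak centre to TSS in kb (horizontal axis, negative upstream, linear within 10 kb and logarithmic beyond) for the 66 genes with a peak; filled circles are Seh1 peaks and open squares IgG peaks. Seh1 peaks lie on both sides of the TSS, from 0.296 to 378 kb away, and 2 of them, at Gdf3 and Tgfbr1, lie within 1 kb.

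Among the Wnt ligands, which are secreted lipid-modified proteins, 10 of 19 genes held 17 Seh1 peaks and 3 genes held 3 IgG peaks. Wnt5a, a ligand known mainly for signalling without beta-catenin, had 4 Seh1 peaks and 1 IgG peak. Its Seh1 peaks lay at chr14:28126991-28127290 and chr14:28455310-28455552, both in introns of the neighbour Erc2 and 378 and 50.0 kb upstream, and at chr14:28535758-28536065 and chr14:28759601-28759843, 24.5 and 248 kb downstream. None of the 4 lay in Wnt5a itself. The peak at 248 kb was labelled as an L1 element and lay 222 bp from the IgG peak, which was also labelled as L1; no other Seh1 peak of these genes lay as near to an IgG peak.

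Wnt4, known for kidney and ovary development, had 2 Seh1 peaks and no IgG peak. The first, of 402 bp, lay in its first intron at chr4:137283115-137283516, 5.68 kb downstream, and was wider than 91.1% of all Seh1 peaks. The second lay 13.3 kb upstream. Wnt7a, which is expressed in the developing cortex, had 1 intergenic Seh1 peak at chr6:91417400-91417719, 6.21 kb upstream.

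Wnt16, a ligand known from bone and blood stem cell development, had 1 Seh1 peak in its last exon, exon 4 of 4, at chr6:22298092-22298358 and 9.998 kb from the TSS. Wnt5b had 2 Seh1 peaks: one at chr6:119454210-119454516, in its first intron and in a B1_Mus2 element, 4.98 kb upstream of an internal start, and one 36.6 kb upstream in Erc1. A further Seh1 peak inside Wnt5b, in its first intron, was given to Fbxl14. Erc1 and Erc2, the hosts of peaks of Wnt5b and Wnt5a, encode related proteins of the presynaptic active zone. Wnt11 had 3 Seh1 peaks and no IgG peak, at chr7:98796132-98796427 (38.8 kb upstream), chr7:98897443-98897743 and chr7:98924400-98924741. The last 2, 58.7 and 85.7 kb downstream, lay in introns of the neighbour Uvrag.

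Wnt3 had 1 Seh1 peak of 367 bp at chr11:103826240-103826606, 52.2 kb downstream and in intron 19 of 20 of Nsf. Wnt8a, Wnt9a and Wnt10a had 1 Seh1 peak each, 11.98, 10.7 and 23.4 kb downstream; the Wnt9a peak lay in its first intron. Wnt2 and Wnt2b had 1 IgG peak each, 34.2 and 18.2 kb upstream, and no Seh1 peak. Neither library gave a peak to Wnt1, Wnt3a, Wnt6, Wnt7b, Wnt8b, Wnt9b or Wnt10b. Several of these lie next to another Wnt gene. In the neighbouring pairs Wnt6 with Wnt10a, Wnt3a with Wnt9a and Wnt9b with Wnt3, 1 gene of each was given the Seh1 peak, and the pair Wnt10b with Wnt1 had none.

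Of the Frizzled receptors and Lrp co-receptors, 7 of 12 genes held 13 Seh1 peaks and 1 gene held an IgG peak. Fzd7 had 5 Seh1 peaks, the most of any gene here together with Lef1 and Fgfr2, and no IgG peak. They lay at chr1:59392927-59393214, chr1:59404213-59404565, chr1:59431035-59431452, chr1:59458106-59458348 and chr1:59465374-59465701. All 5 were intergenic and upstream, at 89.1, 77.8, 50.9, 23.9 and 16.6 kb, although Fzd7 itself spans only 4.81 kb. The peak at 89.1 kb was labelled RLTR10A and that at 50.9 kb RLTR19-int, both ERVK elements, and the latter, of 418 bp, was wider than 92.6% of all Seh1 peaks.

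Fzd8 had 3 Seh1 peaks and 1 IgG peak, all far upstream. The Seh1 peaks were at chr18:8835591-8835968, chr18:8956271-8956513 and chr18:8968453-8968719, at 377, 256 and 244 kb. The IgG peak lay between them at 283 kb. Fzd9 had 1 Seh1 peak 13.2 kb downstream, in an intron of Baz1b, and Fzd3, a receptor known from axon guidance, had 1 in its own intron 4 of 6 (31.1 kb). Fzd10 and Fzd1 had 1 each at 66.8 and 208 kb, and Lrp6 had 1 at 23.3 kb upstream in an RMER1C element. No Seh1 peak of this role lay within 10 kb of a TSS. Fzd2, Fzd4, Fzd5, Fzd6 and Lrp5 were given no peak. Lrp5 nevertheless held 2 Seh1 peaks that were given to Ppp6r3, at chr19:3620051-3620301 in its exon 9 of 23 and at chr19:3622955-3623326 in its intron 7 of 22. Lrp6 held 1 Seh1 peak at chr6:134479561-134479806, in its exon 12 of 23, and 1 IgG peak in its intron 10 of 22, both given to Bcl2l14.

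Secreted antagonists, which bind the co-receptors (Dkk) or the ligands (Sfrp), held Seh1 peaks in 5 of 8 genes, 12 in all, and IgG peaks in 2. Sfrp5 had 2 Seh1 peaks and no IgG peak, both within 10 kb upstream: chr19:42204480-42204753 at 2.36 kb and chr19:42211921-42212233 at 9.83 kb, the latter labelled LTR90A. Sfrp2 had 2 Seh1 peaks, 1 of them in its last exon, exon 3 of 3, at chr3:83773189-83773472 and 7.01 kb from the TSS, the other 79.6 kb upstream. Sfrp1 had 2 intergenic Seh1 peaks 66.4 and 74.7 kb downstream. These 3 Sfrp genes were without an IgG peak.

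Dkk3, a divergent Dkk family member, had 2 Seh1 peaks and 1 IgG peak. The Seh1 peak at chr7:112136538-112137015 in its intron spanned 478 bp, wider than 96.3% of all Seh1 peaks, and that at chr7:112169251-112169584 lay 9.94 kb upstream in an MTA_Mm element. Dkk2 had 4 Seh1 peaks and 1 IgG peak. All 4 carried repeat labels: chr3:131875535-131875782 (L1Md_F3, 210 kb upstream), chr3:132176440-132176685 (a simple repeat in intron 3 of 3), chr3:132261706-132261948 (Lx3B, 177 kb downstream) and chr3:132294570-132294845 (RLTR10, 209 kb downstream). The IgG peak lay in the 3′ UTR of Dkk2, 2.96 kb from the intronic Seh1 peak. Dkk1, Dkk4 and Sfrp4 had no peak given to them or inside them.

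Of the 7 intracellular genes of the pathway, 4 held 11 Seh1 peaks and none held an IgG peak. Lef1, a partner of beta-catenin on DNA, had 5 Seh1 peaks. These were chr3:130940385-130940665, chr3:130980998-130981329, chr3:130982225-130982556 and chr3:131048161-131048466, upstream at 170, 129, 128 and 62.0 kb, and chr3:131173446-131173792 in intron 3 of 11. Those at 129 and 128 kb lay 895 bp apart. Tcf7l2, a related factor, had 4, at chr19:55723739-55724000 (17.9 kb upstream), chr19:55771153-55771514 and chr19:55890108-55890350 (both in introns) and chr19:56075938-56076277 (181 kb downstream). The peak starting at 55890108 lay 5.09 kb upstream of an internal start, and none of the 4 carried a repeat label.

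Tcf7l1, which acts largely as a repressor, had 1 Seh1 peak in intron 3 of 11 at chr6:72781937-72782205, 6.97 kb downstream. The same intron held 3 more Seh1 peaks that were given to Gm15401, at chr6:72671279-72671531, chr6:72691367-72691668 and chr6:72705531-72705773. Axin2, a component of the destruction complex and a common target gene of beta-catenin, had 1 at 34.8 kb upstream. Axin1, Ctnnb1 and Tcf7 were given no peak. Inside Axin1, in intron 3 of 9, lay 1 Seh1 peak with a B1_Mus2 label that was given to Pdia2, at chr17:26174385-26174651. Ctnnb1 and Tcf7 held none.

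Of the 22 Fgf genes, 11 held 14 Seh1 peaks and 3 held 7 IgG peaks, the most IgG peaks of any role. None of the 14 lay within 10 kb of a TSS; the nearest, at Fgf5, was 16.4 kb upstream. Fgf2, which encodes the bFGF also supplied in the medium, had 1 Seh1 peak in intron 1 of 2, 25.2 kb downstream, and no IgG peak. Fgf16 had the widest Seh1 peak of all these genes, 603 bp at chrX:105687787-105688389, which was wider than 99.1% of the whole list and lay 76.4 kb upstream.

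Fgf9, Fgf16 and Fgf20 form one subfamily of secreted ligands, and all 3 belong to the class of largest territory, in which 57.0% of all protein-coding genes had a Seh1 peak. Fgf9 had 2 Seh1 peaks, 53.5 and 329 kb downstream in LTR elements, and 3 IgG peaks between them, at 93.2, 176 and 254 kb. Fgf20 had 2 Seh1 peaks, 57.4 kb (RMER1B) and 26.0 kb (Lx7) downstream. Fgf3, Fgf6, Fgf7 and Fgf18 had 1 each, at 33.8 kb upstream and at 28.1, 41.4 and 99.7 kb downstream.

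Fgf12 and Fgf14 are not secreted and bind voltage-gated sodium channels. They are also the longest of these genes with a peak (595 and 703 kb), and each had 2 IgG peaks in its introns. Fgf12 had 1 Seh1 peak, in an RMER1A element 61.4 kb upstream, and Fgf14 had 2, in RLTR10B2 and Lx2A elements. One more Seh1 peak, in its intron 3 of 4, was given to a neighbour. Fgf13, of the same subfamily and 523 kb long, had none. No peak was given to Fgf1, Fgf4, Fgf8, Fgf10, Fgf11, Fgf15, Fgf17, Fgf21, Fgf22 or Fgf23 either, and none lay inside them.

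Fgf receptors held 9 Seh1 peaks in 3 of 4 genes and no IgG peak, and no peak of theirs carried a repeat label. Fgfr2 had 5, at chr7:130140992-130141234 (126 kb downstream), chr7:130192786-130193076 and chr7:130242484-130242807 (both in introns of Fgfr2), chr7:130326580-130326848 and chr7:130352996-130353250 (59.9 and 86.3 kb upstream). They lay 24.2 to 126 kb from the TSS, on both sides of it. Fgfr1 had 2 intergenic peaks, 64.5 and 35.1 kb upstream, each 307 bp wide. Fgfr3 had 2, and both lay in the neighbour Letm1, which encodes an inner mitochondrial membrane protein: chr5:33741970-33742212 in its 3′ UTR and chr5:33748688-33749003 in exon 8 of 14. These are 18.3 and 25.1 kb from the Fgfr3 TSS, so no peak lay within Fgfr3 itself. Fgfr4 had none.

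Of the Bmp and Gdf ligands, 8 of 20 held 10 Seh1 peaks and 3 held 4 IgG peaks. Gdf3, a TGFb family ligand expressed in pluripotent cells, had the Seh1 peak nearest to a TSS among all these genes. It lay in exon 1 of 2 at chr6:122609656-122609926, 296 bp downstream, was 271 bp wide and carried no repeat label. The nearest IgG peak lay 498 kb away. Gdf6 had 1 Seh1 peak at chr4:9834309-9834646, 9.90 kb upstream in an MLTR31FA_MM element. Gdf11, which in mouse restrains neurogenesis in olfactory epithelium and retina, had 1 at chr10:128880310-128880552 in the TTS class, 11.3 kb from its TSS.

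Bmp7, a ligand known from kidney and eye development, had 2 intergenic Seh1 peaks, 13.7 kb upstream and 129 kb downstream. Bmp6 had 1 of 449 bp at chr13:38312064-38312512, 33.4 kb upstream and wider than 94.8% of the list. Inside Bmp6 lay 3 more Seh1 peaks, at chr13:38450556-38450953 and chr13:38454409-38454707 in intron 1 of 6 and at chr13:38484915-38485179 in intron 3, and 1 IgG peak in intron 1. All 4 were given to the neighbour 4930579J19Rik. Bmp10, a heart ligand, had 1 at 12.3 kb upstream. Bmp2, a ligand of bone and heart development, had 1 Seh1 peak 42.8 kb upstream and 1 IgG peak 293 kb upstream in an L1Md_T element. Bmp3 had 2 of each: its Seh1 peaks lay in its first intron (13.2 kb) and in Cfap299 (155 kb upstream), and its IgG peaks also lay in Cfap299. Bmp5 had 1 IgG peak only. Bmp8b was given no peak but held 2 Seh1 peaks that were given to Oxct2b, at chr4:123121947-123122208 in its exon 4 of 7 and at chr4:123122614-123122902 in its intron 5 of 6. Bmp4, Bmp8a, Bmp15, Gdf1, Gdf2, Gdf5, Gdf7, Gdf9, Gdf10 and Gdf15 had no peak given to them or inside them. Of the Tgfb ligands, Tgfb3 had 1 Seh1 peak, 44.7 kb downstream in Ttll5, and Tgfb1 and Tgfb2 were given none. An IgG peak in the 3′ UTR of Tgfb2 was given to the neighbour A730004F24Rik.

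All 6 BMP and TGFb receptor genes had a peak of some kind: 5 held 9 Seh1 peaks and 4 held 6 IgG peaks. The Tgfbr1 peak at chr4:47385745-47385993, which reaches into the first sequence printed above, lay 347 bp upstream of the internal start and inside the gene. Tgfbr1 also had 1 IgG peak, 21.6 kb from the Seh1 peak. Tgfbr2, the type II receptor, had 2 Seh1 peaks, at chr9:116166475-116166734 in its first intron, 8.76 kb downstream, and at chr9:116065938-116066304, 109 kb downstream in Gadl1. Tgfbr3, the co-receptor betaglycan, had 2 in intron 3 of 16 that lay 458 bp apart, and 1 IgG peak 64.2 kb away.

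Bmpr1b, a type I BMP receptor, had 3 peaks in each library. The Seh1 peaks were chr3:142131042-142131290 and chr3:142163948-142164195, in the first intron at 38.3 and 5.35 kb, and chr3:142185487-142185729, 16.2 kb upstream in a B3 element. This last one lay 5.90 kb from an IgG peak. Bmpr2 had 1 Seh1 peak, 34.5 kb downstream in a B1_Mus2 element. Bmpr1a had no Seh1 peak and 1 IgG peak at chr14:34500685-34500920, in its first intron and 1.74 kb from the TSS, which was the IgG peak nearest to a TSS among these genes.

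Smads held 9 Seh1 peaks in 6 of 8 genes and 1 IgG peak. Smad6, an inhibitory Smad, had 2 Seh1 peaks in its introns, at chr9:64014501-64014782, 7.42 kb from the TSS, and at 11.3 kb. Smad7, the other inhibitory Smad, had 2 intergenic ones, 40.9 and 57.3 kb downstream, the former of 407 bp at chr18:75408102-75408508. Smad9, a BMP-responsive Smad, had 2 that lay 414 bp apart in intron 8 of 9 of the neighbour Alg5, at chr3:54747273-54747559 and chr3:54747974-54748216, 8.17 and 7.49 kb upstream. A Seh1 peak inside Smad9 itself, at chr3:54790829-54791191 in intron 4 of 5, was given to Rfxap. Smad5, which also relays BMP signals, had 1 at 38.6 kb upstream.

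Smad3, a TGFb-responsive Smad, had 1 Seh1 peak in its first intron, 70.6 kb downstream. Smad2, of the same kind, had 1 Seh1 and 1 IgG peak, 89.8 and 168 kb downstream. Smad1 and Smad4, the latter the partner common to all branches, had no peak given to them or inside them. Of the genes with another function, Bmp2k, a kinase gene, had 1 Seh1 peak in its intron and Fgfr1op, a centrosome gene, had 1 at 32.0 kb.

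Overlap with IgG was found at 0 of the 107 peaks (a limit of 3 counts allows up to 2.80%, and the exact binomial interval reaches 3.39%) and at 0.372% of the whole Seh1 list. At 3 of the 107 an IgG peak lay within 10 kb, namely at Wnt5a, Dkk2 and Bmpr1b. Across the 107 the median gap to the nearest IgG peak was 284 kb. Neither value was set beside the whole Seh1 list, so neither can be called particular to these genes. The median width was 282 bp, against 266 bp for the list. The minimum width of 243 bp was seen in 17 of the 107 (15.9%), against 27.2% of the list. Of the 24 IgG peaks, 10 had the minimum IgG width of 236 bp (41.7%), against 38.0% of the IgG list.

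Repeat labels, which the annotation never gives to exon, UTR, promoter or TTS peaks, were carried by 34 of the 107 Seh1 peaks (31.8%, interval 23.1 to 41.5%), against 39.8% of the list. LINE elements made up 8 (7.48%, against 10.6%), LTR elements 12 (11.2%, against 17.0%) and SINE elements 9 (8.41%, against 6.90%). The intervals of the LINE and SINE shares contained the list's value, as did that of LTR elements (5.93 to 18.8%). RMER1 elements were at 4 peaks (3.74%, 1.03 to 9.30%), those of Fgf12, Fgf20, Fzd8 and Lrp6, against 1.52% of the list. Of the 24 IgG peaks, 10 were in L1 elements (41.7%, 22.1 to 63.4%), against 31.4% of the IgG list. How multiply mapping reads were handled is not stated, which leaves the exact copy under a repeat peak uncertain.

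**Figure D5:**
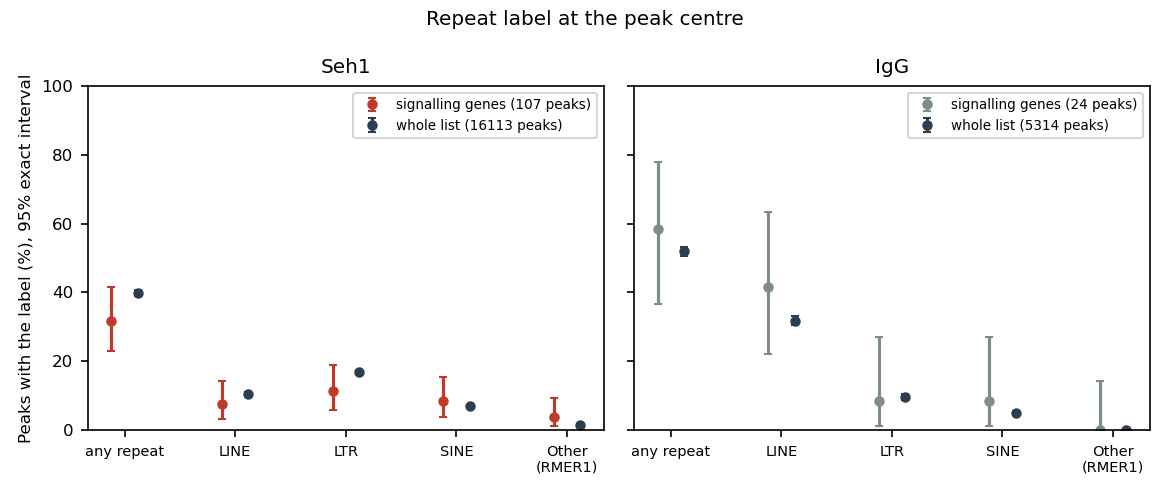
Share of peaks (vertical axis, %) whose centre carried a repeat label of each class, for signalling genes and for the whole list; bars are 95% exact binomial intervals. For Seh1 31.8% of the signalling gene peaks and 39.8% of the list carried a label, and LINE elements are the most frequent class of the IgG peaks.

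A second list held other genes of the same pathways, of which 126 matched the RefSeq table and 1 (Spry3) did not: modulators, cytoplasmic relays, receptors and feedback genes. A Seh1 peak was given to 57 of them (45.2%, interval 36.4 to 54.3%), against 31.9% of all protein-coding genes, and an IgG peak to 21 (16.7%), against 11.3%. Their median territory was 103.4 kb, and 59 of the 126 were in the class of largest territory. There 38 of the 59 had a Seh1 peak (64.4%), against 57.0% of all genes in that class; in the other classes it was 3 of 20, 4 of 17 and 12 of 30, against 11.1%, 23.3% and 36.0%. By pathway the Seh1 counts were 21 of 48 for Wnt, 15 of 29 for FGF and 21 of 49 for BMP and TGFb. Within 10 kb of a TSS there were 13 genes (10.3%), against the background of 9.68%. Peaks in exons were found in Apc, the scaffold of the destruction complex (exon 2 of 16), in the Groucho co-repressor genes Tle1 (exon 16 of 20) and Tle3 (exon 19 of 20), and in Sos1, which activates Ras (exon 10 of 22). They were also found in Fgfbp1, an FGF carrier (exon 3 of 3, 2.15 kb from the TSS), in Lefty2, a Nodal antagonist (exon 4 of 4, 4.44 kb), and in Amhr2, the receptor of anti-Müllerian hormone (exon 6 of 11, 1.88 kb). Exon peaks made up 5.37% of the whole Seh1 list. Their share was not worked out for the second list, so they cannot be called particular to these genes.

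The Fgfbp1 peak spanned 725 bp. Ryk, a Wnt receptor, had a Seh1 peak in its 3′ UTR and Wif1, a secreted Wnt antagonist, had one at its TTS. Outside exons, the peaks nearest to a TSS lay at Daam1, which links Wnt to the actin skeleton (1.11 kb upstream), at Chrdl2, a BMP antagonist (1.20 kb upstream), and at Rspo1, a Wnt agonist with 2 peaks within 10 kb (3.21 and 6.99 kb upstream). Others within 10 kb were Rspo4 (6.03 kb), Notum, which inactivates Wnt proteins (5.81 kb), Znrf3, which removes Frizzled from the membrane (6.23 kb), and Dvl3 (8.62 kb, in Eif2b5). Also within 10 kb were Ror1 (7.79 kb), Msx2 (7.11 kb) and Mstn, the muscle ligand myostatin (7.82 kb). IgG peaks within 10 kb lay at Znrf3 (2.67 kb downstream), Kl (7.735 kb upstream), Prickle2 (8.68 kb downstream) and Fst (9.53 kb downstream). Of all protein-coding genes 2.36% had an IgG peak within 10 kb.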

How the data were processed

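Per the file headers, the authors annotated each deposited peak list with HOMER annotatePeaks.pl against mm10. The submitters' processing notes name Bowtie2 and HOMER, with no version, and list hg18 and hg38 although the genes are mouse. No label or header states the peak caller, its thresholds, filters or read depth. In both deposited lists the score column held only 0. Positions, annotation classes and distances to the TSS are the authors' values, 1 list per library.

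The genes, role groups and the second gene list were chosen with earlier results of these data known. Positions, widths and distances were tabulated in Python 3.11.15 with pandas 2.3.3; intervals used SciPy 1.17.1 at 95% (exact binomial, exact Poisson). Gene spans came from RefSeq GRCm38.p6, the assembly of mm10, without genes that end below 3 Mb on chromosomes other than Y. Overlap meant at least 1 bp. The interval and name functions were tested on simulated data. With 1 library per group there was no test. For the signalling genes, positions are given for their peaks in exons, UTRs, promoters or TTS or within 10 kb of a TSS, for the 10 widest Seh1 peaks and for genes with 3 or more Seh1 peaks (the tenth place was tied among genes with 2). Positions of most Seh1 peaks inside a gene but given to another were added after their values were seen. Genes of the second list are named by the same classes and distance, without positions. The input library was not analysed here separately, and peak sequences outside the RefSeq windows were not used here.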

Additional observations from a re-analysis of the deposited data

How the results depend on the processing

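The count of 62 genes with a Seh1 peak was 58 with peaks above the minimum width, 60 within 100 kb, 46 without repeats and 60 without genes matched only by spelling; it was 16 within 10 kb and 31 by peaks inside the gene body. The 18 Seh1 peaks within 10 kb became 4 within 5 kb and 33 within 20 kb. The 17 genes with an IgG peak became 10 with wider peaks, 10 within 100 kb, 1 within 10 kb, 10 by gene body and 9 without repeats. The 24 IgG peaks became 14 with wider peaks and 10 without repeats, and the 1 IgG peak within 10 kb became 5 within 20 kb and 0 with wider peaks. With centres within 1 kb, 1 Seh1 peak in place of 0 matched an IgG peak. The 57 other pathway genes became 13 within 10 kb, an alternative chosen after seeing the data. The windows and filters themselves set these smaller or larger counts. No paired analysis was possible because each group has 1 library and no result comes from a test. Depth is unknown, so a gene without a peak may lack one for want of reads.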
